A study of Mus musculus with 24 samples.

Results

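Chil3 and Chil4 encode the mouse chitinase-like proteins also known as Ym1 and Ym2, and their RNA is described here in cells of the adult olfactory mucosa, with and without loss of the olfactory bulb. All 5 bead array probes annotated to the genes were taken, 3 for Chil3 and 2 for Chil4, of 45281 probes on the array, and all 5 passed the filter on dim probes that 21711 probes passed. The genes had been picked because their signal is high after bulbectomy in both sorted neuronal populations and varies in the other groups. Their levels and differences below are therefore a description and carry no test.

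Proteins of this family share the fold of glycoside hydrolases that cleave chitin, the sugar polymer of insect cuticle and fungal walls, but chitinase-like members bind sugars without cleaving chitin. Ym1 is secreted by mouse macrophages activated through Il4, Il13 and the transcription factor Stat6, and also by neutrophil precursors, while Ym2 is known mainly from epithelia such as that of the allergic airway. Rodent nasal epithelium, the olfactory part included, is a known site where Ym proteins accumulate, in ageing and injured tissue as crystals.

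The study sorted cells from mice of 8 to 12 weeks, pooled several animals per replicate and ran 3 arrays per group in 8 groups. OMP-OBX and OMP cells were GFP-positive, small and live cells of mice heterozygous for ∆OMP-GFP, from a cross to CD-1, in which the reporter marks mature olfactory neurons. Neurog1-OBX and Neurog1-Ctrl cells came by the same gate from mice heterozygous for Neurog1-GFP, from a cross to FVB/NJ, in which the reporter marks neuronal precursors and the young neurons they form. OBX means that the mucosa lay on the side of a unilateral olfactory bulb removal done 3 weeks earlier, and OMP and Neurog1-Ctrl mice were normal transgenic animals without that surgery. Sus (bright GFP, CD54-negative, supporting cells) and Sox2GBC (dim GFP, negative for Ecad and CD54, globose basal progenitors) were sorted from ∆Sox2-GFP heterozygotes, also crossed to FVB/NJ. OM was the whole dissociated mucosa of wild-type F1 hybrids of 129S1/SvImJ and C57BL/6J mice, gated for live cells alone, and mREF was a commercial reference RNA pooled from cultured cell lines and run as technical repeats. Sus and Sox2GBC share a mouse line. Outside that pair and the lesion comparisons, mouse line and cell population cannot be told apart. OBX mice differ from their controls by surgery as well as by loss of the bulb.

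The share of probes detected ran from 33.9% to 48.3% over the arrays, and within a mucosal group arrays correlated across genes with r of 0.944 to 0.992. Neurog1 was detected on all 3 arrays of Neurog1-OBX and of Neurog1-Ctrl and on 0 arrays of the other mucosal groups, in accord with the labels. Sox2 averaged log2 9.66 in Sus and 6.19 in Sox2GBC, where it was detected on 2 of 3 arrays. It averaged 8.33 in OM, 6.87 in OMP and in Neurog1-OBX, 6.48 in OMP-OBX and 6.11 in Neurog1-Ctrl. Sox2 RNA thus did not set Sox2GBC apart from the neuronal sorts. Omp, the marker of mature neurons, lay between 15.2 and 15.4 in every mucosal group but Sus (13.9), so neuronal RNA was abundant in all of them. The spread of the negative control beads, a measure of array noise, put the arrays into 4 classes, with all OMP-OBX arrays in the third and all Neurog1-Ctrl arrays in the fourth. The number of arrays limits the precision of every value, and p-values measure the spread between pools of mice.

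The regulatory sequence of the genes is shown because they were high together. Chil3 and Chil4 are neighbours on chromosome 3, where RefSeq places Chia1 before Chil3 and Chil6 after Chil4, and the whole run from Ovgp1 to Chil6 holds Chil5 and Pifo as well. The 250 bases before each annotated start, from RefSeq on GRCm38.p6, are printed 5′ to 3′ on the minus strand, chr3:106167565-106167814 for Chil3 and chr3:106219480-106219729 for Chil4. Capitals mark TTCNNNGAA, the palindrome bound by STAT proteins, and TATAAA, the TATA box.
Chil3: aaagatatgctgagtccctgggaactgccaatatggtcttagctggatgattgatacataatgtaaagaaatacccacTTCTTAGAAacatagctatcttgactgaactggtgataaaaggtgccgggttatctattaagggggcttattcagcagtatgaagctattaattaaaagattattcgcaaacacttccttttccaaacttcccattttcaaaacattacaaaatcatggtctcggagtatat
Chil4: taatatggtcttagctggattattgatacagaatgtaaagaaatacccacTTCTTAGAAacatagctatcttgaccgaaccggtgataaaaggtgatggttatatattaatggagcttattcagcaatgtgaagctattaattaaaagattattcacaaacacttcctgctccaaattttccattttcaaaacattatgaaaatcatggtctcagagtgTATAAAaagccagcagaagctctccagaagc
Aligned, the windows matched at 201 of 221 positions (91%), with an unbroken shared run of 44 bases. Against the promoters of the other chitinase family genes identity was 51.2% to 62.7%. Both windows hold the same STAT palindrome letters, at -172 to -164 in Chil3 and at -200 to -192 in Chil4, and 7.02% of the 32851 mouse promoter windows of this length hold the motif on either strand. Among the other family genes Chil6 holds TTCNNNGAA at -184 to -176 and at -86 to -78. TATAAA stood at -31 to -26 in Chil4 and was not in the Chil3 window, while Chil6 and Chia1 and 12.4% of all windows hold it. When aligned, the Chil3 window ends within the bases that match this Chil4 stretch. It therefore cannot show whether Chil3 holds the motif there. The form of the palindrome with a longer spacer, which Stat6 prefers, was in neither window and in 5.85% of all. These motifs were chosen after the genes' values were known, and a match is no evidence of binding. Probe sequences were not used here, so hybridisation of either transcript to the other gene's probes could not be checked.

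In the OMP-sorted cells Chil4 RNA was far higher with the lesion than without. On its brighter probe (ILMN_2524865) the normalised log2 intensity was 14.5, 13.7 and 14.4 in OMP-OBX, against 7.92, 7.01 and 5.30 in OMP. Every lesioned array stood above every unlesioned one, by at least 5.80 log2 units. The means were 14.2 ± 0.42 and 6.74 ± 1.33 (SD, n = 3 each), a difference of 7.46 or 176-fold. OMP replicate 3 was not above background and OMP replicates 1 and 2 were. Without OMP replicate 1 the difference was 8.05, and without OMP replicate 3 it was 6.74. Only OMP replicate 3 shared the noise class of the lesioned arrays, and against the background reading of that array the difference was 8.91.

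The Neurog1-sorted cells showed a Chil4 difference of like size. The log2 intensities were 14.5, 14.7 and 15.1 in Neurog1-OBX, against 5.64, 8.19 and 8.20 in Neurog1-Ctrl, again without overlap. Means of 14.8 ± 0.27 and 7.35 ± 1.48 (SD, n = 3 each) differed by 7.42, or 172-fold. Neurog1-Ctrl replicate 1 was the only array here below detection, and without it the difference was 6.57. Within the fourth noise class, 2 Neurog1-OBX against 3 Neurog1-Ctrl arrays gave 7.27. On the scanner's own background-subtracted scale Chil4 reached 33571, 28666 and 25821 units in Neurog1-OBX, against 47.7, 370 and 394 units in Neurog1-Ctrl. These lesioned values are 50.4% to 64.2% of the brightest probe on the same array, and 30.2% to 46.9% in OMP-OBX, while no unlesioned array of either sort passed 0.731%.

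The dimmer Chil4 probe (ILMN_1222707) gave the same picture. It read log2 11.2, 10.5 and 11.5 in OMP-OBX, against 5.90, 4.92 and 4.53 in OMP, where it was detected on 1 array. In Neurog1-OBX it read 11.9, 12.3 and 12.4, against 4.80, 5.15 and 5.12 in Neurog1-Ctrl, where it was detected on 0 arrays. The differences were 5.95 in the OMP sort and 7.18 in the Neurog1 sort. A probe not above background in any control array has only a bound there, computed against the lowest signal detected on each control array. Such a bound holds for that probe with the processing used here alone, and other processing can give less. By it the Neurog1 difference is at least 79.2-fold.

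Chil3 was below detection in both unlesioned neuronal sorts and well above it in both lesioned ones. Its brightest probe (ILMN_3043036) read log2 9.60, 8.41 and 9.58 in OMP-OBX, against 4.82, 4.59 and 4.66 in OMP. The difference of means (9.20 ± 0.68 and 4.69 ± 0.12, SD, n = 3 each) was 4.51, at least 12.3-fold with this processing. The Neurog1 sort showed the same separation. Log2 intensities were 9.79, 11.3 and 10.7 in Neurog1-OBX, against 4.53, 4.79 and 5.10 in Neurog1-Ctrl. The means of 10.6 ± 0.78 and 4.81 ± 0.29 (SD, n = 3 each) differed by 5.80, at least 26.2-fold with this processing. Since no control array was above background, these differences depend on the background level and do not rank the sorts. Within noise classes the Chil3 difference was 4.53 in the OMP sort, against OMP replicate 3 alone and its background reading, and 5.76 in the Neurog1 sort, also against background readings.

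The other Chil3 probes were dim but stood on the same side. ILMN_2712986 differed by 2.20 (at least 2.45-fold) in the OMP sort and by 2.74 (at least 3.24-fold) in the Neurog1 sort. ILMN_3117876 differed by 1.96 (at least 2.15-fold) and by 2.51 (at least 2.35-fold) in the same sorts. Neither was detected on any OMP or Neurog1-Ctrl array, and both were detected on all 3 arrays of OMP-OBX and of Neurog1-OBX. Lesioned and unlesioned arrays did not overlap for 5 of 5 probes in either comparison. Over the genes tested, 14.3% were higher without overlap in OMP-OBX and 11.3% in Neurog1-OBX, and since the genes were picked on these comparisons nothing is read from their count. By size of rise among the 11870 genes tested, Chil4 was 1st in both comparisons, and Chil3 was 3rd in OMP-OBX against OMP and 2nd in Neurog1-OBX against Neurog1-Ctrl. The choice of genes used these rises, so nothing is read from the ranks either. The Chil3 ranks rest on its brightest probe, with controls at background.

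**Figure D1:**
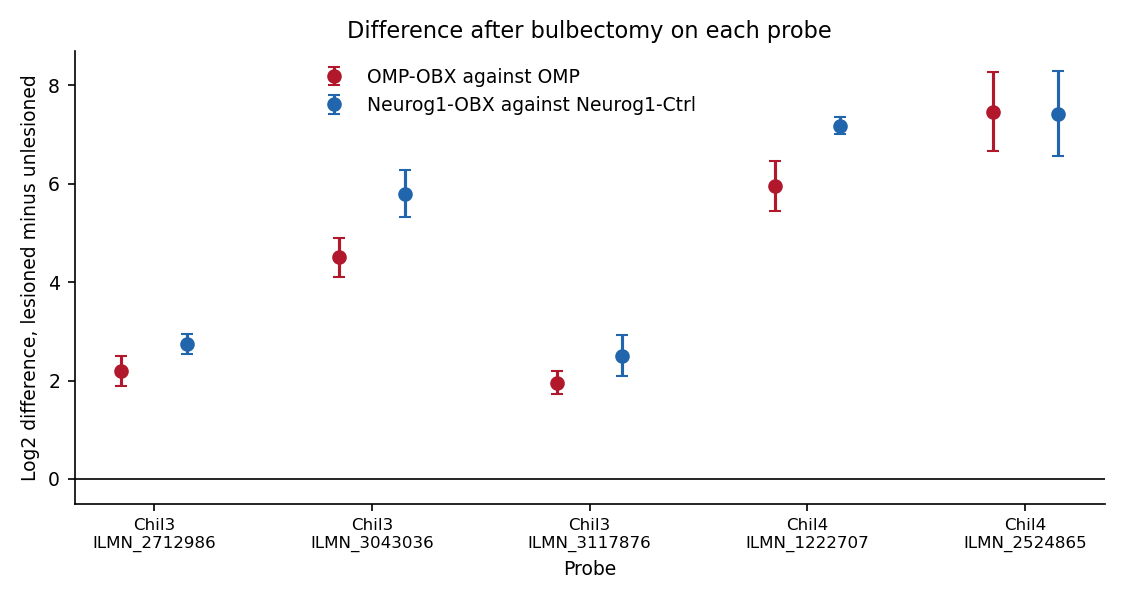
Log2 difference, lesioned minus unlesioned, for each Chil3 and Chil4 probe in the OMP sort (red) and the Neurog1 sort (blue); bars are the standard error of the difference of 2 means of 3 arrays. All values lie above 0, between 1.96 on the dimmest Chil3 probe and 7.46 on the brighter Chil4 probe.

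Set beside each other, the lesion differences of the OMP and Neurog1 sorts were close for Chil4 on its brighter probe, 0.04 apart. On the dimmer Chil4 probe the OMP difference minus the Neurog1 difference was -1.23, and on the brightest Chil3 probe it was -1.29. Both negative values rest on controls at background (Chil3 detected on 0 control arrays, the dimmer Chil4 probe on 1 of 3 OMP and 0 of 3 Neurog1-Ctrl arrays), so they set no order between the sorts. The lesioned groups themselves ranked alike on every probe. Neurog1-OBX averaged above OMP-OBX by 0.56 and 1.14 on the Chil4 probes and by 0.45 to 1.41 on the Chil3 probes. On the brighter Chil4 probe the arrays of these groups came within 0.03 of each other, and on 2 of the 3 Chil3 probes they overlapped. None of these differences between sorts was tested, because the choice of genes used both comparisons.

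Outside the lesion groups, the supporting cells held the highest mean levels on every probe but ILMN_2712986 of Chil3, where OM averaged 5.70 and Sus 5.47. Chil4 on its brighter probe read 11.3, 11.9 and 12.9 in Sus, all 3 detected. Sox2GBC had 12.2, 12.5 and 8.47, so replicate 3 stood well below the other two while still detected. OM spread most, at 5.56, 11.9 and 8.38. The reference RNA mREF read 4.73, 4.52 and 5.02, with 0 of 3 arrays detected. The groups' means were 12.0 ± 0.78 in Sus, 11.0 ± 2.23 in Sox2GBC, 8.61 ± 3.18 in OM and 4.76 ± 0.25 in mREF (SD, n = 3 each), the last from a separate normalisation over all 24 arrays.

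Chil3 followed the same order at its brightest probe. It read 7.26, 8.72 and 8.46 in Sus and was detected on all 3 arrays. In Sox2GBC it read 6.62, 7.44 and 4.68, with replicate 3 again lowest and not detected. OM had 4.95, 6.04 and 5.33, of which replicate 2, the array with the most Chil4, was the only one detected. In mREF it was detected on 0 of 3 arrays, with a mean of 4.69 ± 0.18 (SD, n = 3). The dim probes agreed less well, since in OM both were detected on replicate 1 (log2 5.52 and 6.07) and not on replicate 2, whereas the brightest probe was detected on replicate 2 alone.

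From high to low, group means of both genes on their brightest probes ran Neurog1-OBX, OMP-OBX, Sus, Sox2GBC, OM and then Neurog1-Ctrl and OMP. For Chil4 the arrays of Neurog1-OBX and OMP-OBX did not overlap and were 0.56 apart in mean, and OMP-OBX lay above Sus by 2.17 in mean, with 0.86 between their nearest arrays. For Chil3 Neurog1-OBX stood clear of OMP-OBX, but OMP-OBX and Sus overlapped, with means 1.05 apart. All further neighbours in the order, from Sus down to OMP, overlapped for both genes. No test was run on this order.

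**Figure D2:**
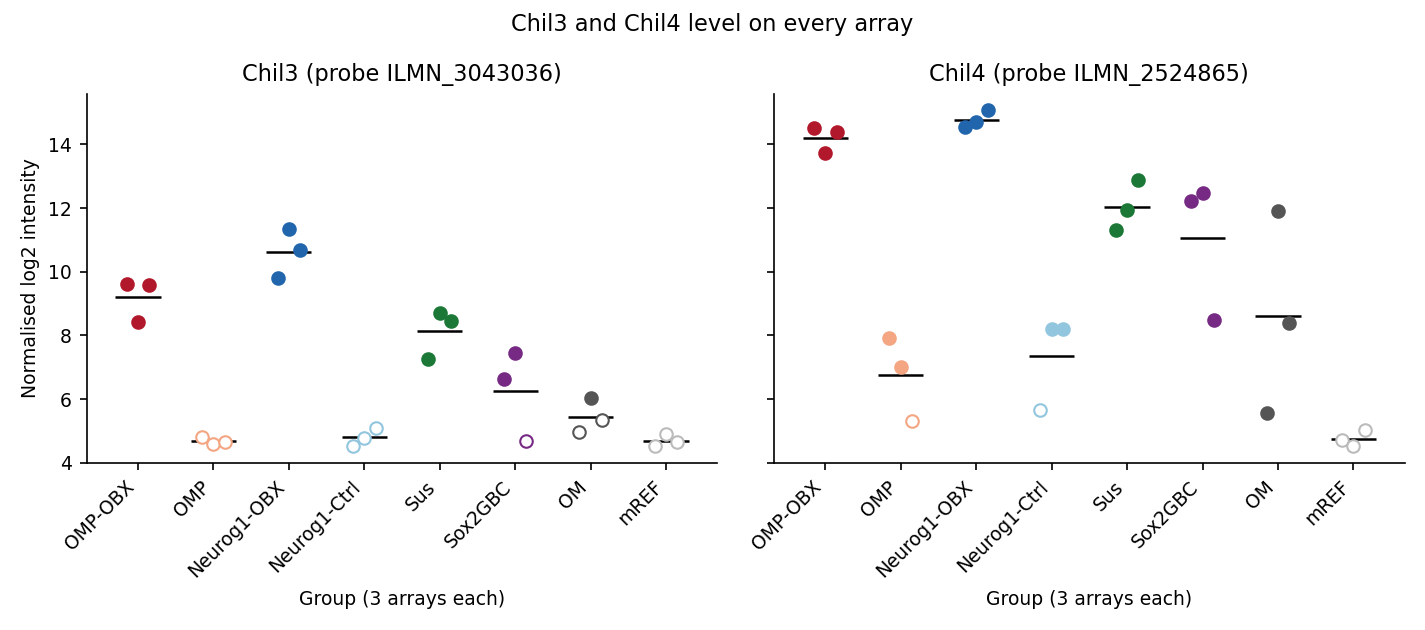
Normalised log2 intensity of the brightest Chil3 probe (left) and Chil4 probe (right) on each of 24 arrays; filled points were detected, open points were not, and lines are means of 3 arrays. OMP-OBX and Neurog1-OBX stand above OMP and Neurog1-Ctrl on every array, and Sox2GBC replicate 3 and OM replicate 1 lie far below the highest array of their own groups.

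Array noise and marker levels are given beside this spread. Sox2GBC replicate 3 lay in the second noise class and the other Sox2GBC arrays in the fourth. OM replicate 1 lay in the first class, but replicates 2 and 3 shared the fourth and still read 11.9 and 8.38 for Chil4. Summed linear intensity of 19 supporting cell markers was lowest on Sox2GBC replicate 3 (91216, against 137350 and 143920 on the others). It was also lowest on OMP replicate 3 (57429, others 83454 and 109530) and on Neurog1-Ctrl replicate 1 (35681, others 58013 and 60947), the arrays with the least Chil4 in those groups. In OM it ran the other way, with 218570 on replicate 1, where Chil4 was lowest, and 114580 on replicate 2, where Chil4 was highest. Within Sus it was 316600, 309370 and 297900 on replicates 1 to 3, whose Chil4 readings were 11.3, 11.9 and 12.9. In OMP-OBX it was 42465, 63400 and 52711, beside Chil4 at 14.5, 13.7 and 14.4. In Neurog1-OBX it was 62915, 71005 and 71307, beside Chil4 at 14.5, 14.7 and 15.1. The pattern was not particular to supporting cell markers. Sums of Bowman gland, respiratory and macrophage genes were also lowest on Sox2GBC replicate 3, OMP replicate 3 and Neurog1-Ctrl replicate 1. Fewer cells of a type and less RNA per cell cannot be told apart in such pools, and the part of noise or of supporting cell RNA in these levels was not tested.

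Across the 21 mucosal arrays the probes moved together. The Chil4 probes correlated with Pearson's r of 0.976 (Spearman's rho 0.983), and the brightest probes of Chil3 and Chil4 with r of 0.924 (rho 0.936). Without the 2 arrays farthest from the median the second r was 0.935. Much of this reflects the gap between lesioned and other groups, which form clusters. For deviations from the group means r was 0.891 between the Chil4 probes and 0.669 between the brightest Chil3 and Chil4 probes. The dimmest Chil3 probe, ILMN_3117876, had -0.23 with the brighter Chil4 probe on that measure. The arrays share labelling and normalisation, and shared hybridisation between the genes would also raise these values.

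**Figure D3:**
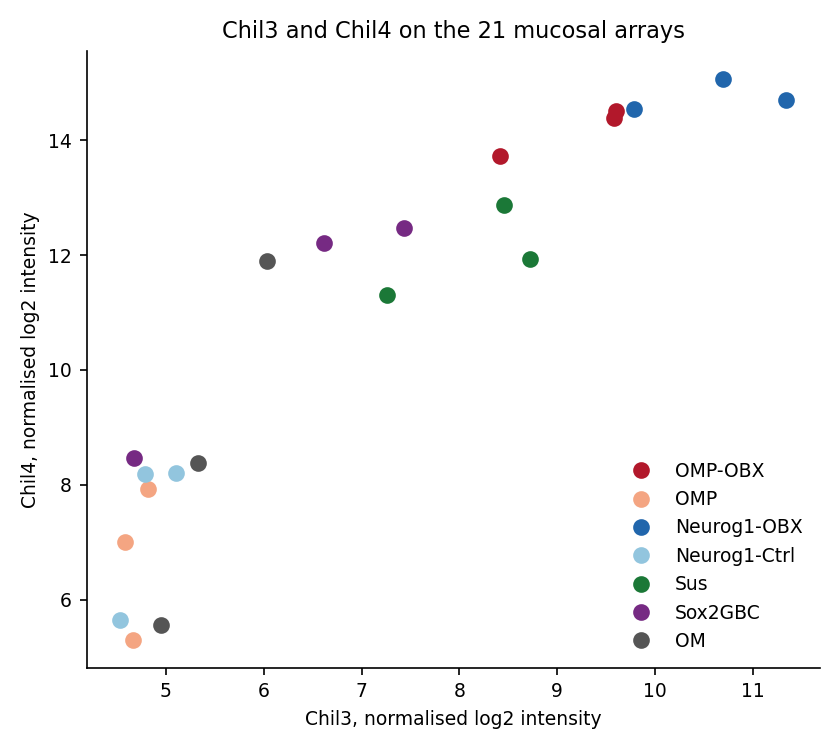
Chil4 against Chil3, brightest probes, normalised log2 intensity, 1 point per mucosal array and colour per group. The OMP-OBX and Neurog1-OBX arrays fill the upper right, OMP and Neurog1-Ctrl the lower left, and Sus and Sox2GBC lie between except for Sox2GBC replicate 3.

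No other chitinase family gene tested differed as much as Chil3 and Chil4 did on their brightest probes. In the Neurog1 sort Chil6, at 2.22, came near the dim Chil3 probes (2.74 and 2.51). Differences from here on are from limma fitted over all 11870 genes, with Benjamini-Hochberg adjusted p, and genes under 0.05 were called: 8.67% of genes in OMP-OBX against OMP and 0.396% in Neurog1-OBX against Neurog1-Ctrl. In lists as short as those below, 0 or 1 calls cannot be told from these shares, so nothing is read from such counts. Of 8 other family genes on the array, 5 were tested and 0 of 5 were called in either comparison, with 1 of 5 at an unadjusted p under 0.05 in each. Over all genes 2515 and 1228 were under that unadjusted level in the OMP and Neurog1 sorts. The list's median difference was 0.59 in the OMP sort and 0.51 in the Neurog1 sort, against -0.01 and -0.02 over all genes.

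Chia1, the acidic chitinase that does cleave chitin, averaged 8.96 in OMP-OBX and 7.66 in OMP, a difference of 1.30 ± 0.44 (SE) with an adjusted p of 0.0723 in limma. In Neurog1-OBX its difference was 0.63 ± 0.44 (adjusted p 0.663, limma). The dimmer Chia1 probe averaged 7.497 in OMP-OBX and 6.019 in OMP, and 7.475 in Neurog1-OBX and 6.737 in Neurog1-Ctrl. On both Chia1 probes every lesioned array stood above every unlesioned one in each sort. Of all genes tested this held for 14.3% in the OMP sort and 11.3% in the Neurog1 sort. Chil6, the chitinase-like gene next to Chil4, averaged 8.95 in Neurog1-OBX and 6.73 in Neurog1-Ctrl. Its difference was 2.22 ± 0.56 (adjusted p 0.111, limma), and 0.91 ± 0.56 in the OMP sort (adjusted p 0.386, limma). With only the compared groups in the fit, with array weights or with the mean of all probes, 1 of the 5 genes was called in at least 1 comparison.

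The remaining members lay nearer 0. Chil1, whose human counterpart is the secreted protein YKL-40, differed by 0.59 and 0.13 in the OMP and Neurog1 sorts. Chid1, a widely expressed family member, differed by 0.09 and -0.04, and Ovgp1, the oviductal glycoprotein, by -0.54 and 0.51. Chil5, Chit1 (the macrophage chitinase chitotriosidase) and Ctbs (the lysosomal chitobiase) were detected on 0 of 21 mucosal arrays. Across the unlesioned groups none of the tested family genes had the full order of Chil3 and Chil4, but some shared parts of it. Chia1 (10.3) and Chid1 (8.76) averaged highest in Sus. Chil1 averaged 8.63 in Sus and 8.73 in Sox2GBC, against 6.34 in OMP and 5.97 in Neurog1-Ctrl. Chil6 was lower in Sus (6.87 ± 0.60) than in Sox2GBC (9.41 ± 1.19), and Ovgp1 was lowest of the mucosal groups in Sus (6.42 ± 0.38, SD, n = 3 each), without a test.

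Genes of type 2 signalling, the cytokine route known to induce Ym1, were mostly dim. Of 24 listed ligands, receptors and signalling genes 14 were tested. The Jak-Stat feedback inhibitor Cish rose by 1.34 ± 0.36 (SE, adjusted p 0.0223, limma) in OMP-OBX, where it averaged 6.88, against 5.54 in OMP, and 13 of 14 did not pass. Cish averaged higher in the Neurog1 sort, 8.06 in Neurog1-OBX and 7.31 in Neurog1-Ctrl. In Neurog1-OBX 0 of 14 passed in limma, with 4 at an unadjusted p under 0.05. Il13ra1, Jak1 and Socs3, singled out after their values were seen, were detected on all arrays of the lesion and control groups. They differed by 0.94, 0.81 and 1.03 in the Neurog1 sort and by -0.12, -0.32 and 0.37 in the OMP sort, without passing. Il13, a ligand, differed by -0.01 and -0.51 in the OMP and Neurog1 sorts, Il33, an alarm cytokine of epithelia, by -0.84 and 0.06, and Il25, another such cytokine, by -0.25 and -0.31. Il25 was detected on 1 OMP array and 0 arrays of the other lesion and control groups. Il13 was detected on 0 of 3 Neurog1-OBX and 1 of 3 Neurog1-Ctrl arrays. The Il25 differences and the Il13 difference in the Neurog1 sort are thus near background. In the OMP sort Il13 was detected on 2 of 3 OMP-OBX and 3 of 3 OMP arrays, at dim means of 5.88 and 5.89. Il4, Il5 and Tslp were on the array and failed the filter on dim probes. Stat6 was detected on 1 OMP array and on 0 arrays of OMP-OBX, Neurog1-OBX and Neurog1-Ctrl. The list's median was -0.15 in the OMP sort and 0.15 in the Neurog1 sort. The list held a call in OMP-OBX against OMP under 11 of 19 alternatives, and 0 when OMP-OBX replicate 1, OMP-OBX replicate 3, OMP replicate 1 or OMP replicate 3 was left out. In the Neurog1 sort it held calls under 2 of 19 alternatives, at most 2, reached with only the compared groups.

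Target genes of the same cytokines showed 0 calls of 12 tested in either comparison, in the limma fit and under all 19 alternatives, with 0 and 1 at an unadjusted p under 0.05 in the OMP and Neurog1 sorts. The list had 29 members, and Arg1, Retnla and Retnlb, which accompany Chil3 in alternatively activated macrophages or in epithelium of the gut, failed the filter. Mrc1, the macrophage mannose receptor, differed by 0.22 in the OMP sort and 0.21 in the Neurog1 sort. Mgl2, a lectin of alternatively activated macrophages and dendritic cells, differed by -0.19 and -0.17, and neither it nor Mrc1 was detected on more than 1 array of any of the 4 groups. The chemokine Ccl17 was detected on 0 arrays of them. The medians of the list were 0.01 and 0.27.

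Of macrophage and monocyte genes 0 of 16 were called in both comparisons and in all 19 alternatives, with 0 at an unadjusted p under 0.05 in limma. Over all genes 8.67% were called in the OMP sort and 0.396% in the Neurog1 sort, so 0 of 16 is near the share of all genes. Adgre1, an adhesion receptor that marks mouse macrophages, and Csf1r, the receptor for macrophage growth factor, were detected on 3 of 3 OM arrays and on 0 arrays of OMP-OBX, OMP, Neurog1-OBX and Neurog1-Ctrl. The list was not silent there, since Lyz1, Lyz2 and Laptm5, singled out after their values were seen, were detected on all 3 arrays of each of these groups. Mpeg1, a pore-forming protein of macrophages chosen in the same way, was detected on 2 OMP-OBX and 1 Neurog1-OBX arrays, against 0 in OMP and Neurog1-Ctrl. The part of macrophage RNA in the Chil3 and Chil4 differences was not tested. Cd14, the endotoxin co-receptor, differed by -0.14 and 0.54 in the OMP and Neurog1 sorts. The list's summed intensity was 2247 to 2881 in OMP-OBX, against 1667 to 3682 in OMP. It was 1655 to 3245 in Neurog1-OBX, against 1082 to 2309 in Neurog1-Ctrl, so the groups overlapped in both pairs. The sum is linear and follows mainly Lyz1, Lyz2 and Laptm5, at mean log2 10.7, 8.54 and 8.44 in OMP-OBX. Adgre1 and Csf1r averaged 4.87 and 5.22 there, and Lyz2 is also in the Bowman gland list below. The overlap therefore says little about macrophage RNA. OM had 19385 to 25857, and its array with the most Chil4, replicate 2, had the least of this sum.

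Neutrophil genes gave 1 call among 8. Prtn3, the granule protease proteinase 3, rose by 1.45 ± 0.33 (SE, adjusted p 0.00796, limma) in OMP-OBX, and differed by 0.12 in Neurog1-OBX (adjusted p 0.941, limma). It averaged 7.54 in OMP-OBX and 6.08 in OMP. Its means were higher in Neurog1-OBX (8.34) and Neurog1-Ctrl (8.21), where all 3 arrays of each detected it. S100a8 and S100a9, the calprotectin subunits, differed by 0.06 and -0.50 in the OMP sort and by 1.13 and 0.19 in the Neurog1 sort. Lcn2, a siderophore-binding protein of neutrophils and epithelia, differed by 1.36 and 1.91 without passing (adjusted p 0.106 and 0.129, limma). S100a8, S100a9 and Lcn2 were each detected on 0 of 3 Neurog1-Ctrl arrays. Retnlg, singled out after its values were seen, differed by 1.16 and 1.33 without passing (adjusted p 0.0966 and 0.2075, limma). It was detected on 1 OMP-OBX and 2 Neurog1-OBX arrays, and on 0 arrays of OMP and Neurog1-Ctrl. The list's medians were 0.50 and 0.25 in the OMP and Neurog1 sorts, with 3 and 2 of 8 at an unadjusted p under 0.05 in limma. Summed intensity of the list was 723 to 841 in OMP-OBX, against 324 to 693 in OMP. In the Neurog1 sort it was 374 to 1057, against 386 to 494, and so overlapped. The granule genes Ngp, Camp and Mpo failed the filter. In OMP-OBX against OMP the list held 0 calls with median scaling, and in the Neurog1 sort it held 2 without Neurog1-OBX replicate 2. The part of neutrophil RNA in the Chil3 and Chil4 differences was not tested.

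Few genes of other blood cells were measured. Of 19 eosinophil, mast cell and basophil genes 3 were tested, and Fcer1a, Hdc and Kit were not called. Rora, a nuclear receptor of innate lymphoid cells that many tissues express, fell by 0.94 in OMP-OBX (adjusted p 0.0386, limma) among 4 lymphoid genes tested. The lymphoid list held a call under 6 of 19 alternatives, and 0 without any one of the OMP arrays or of OMP-OBX replicates 1 and 2. Cd3e, Cd79b and Icos did not pass, and 0 of 4 passed in Neurog1-OBX.

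**Figure D4:**
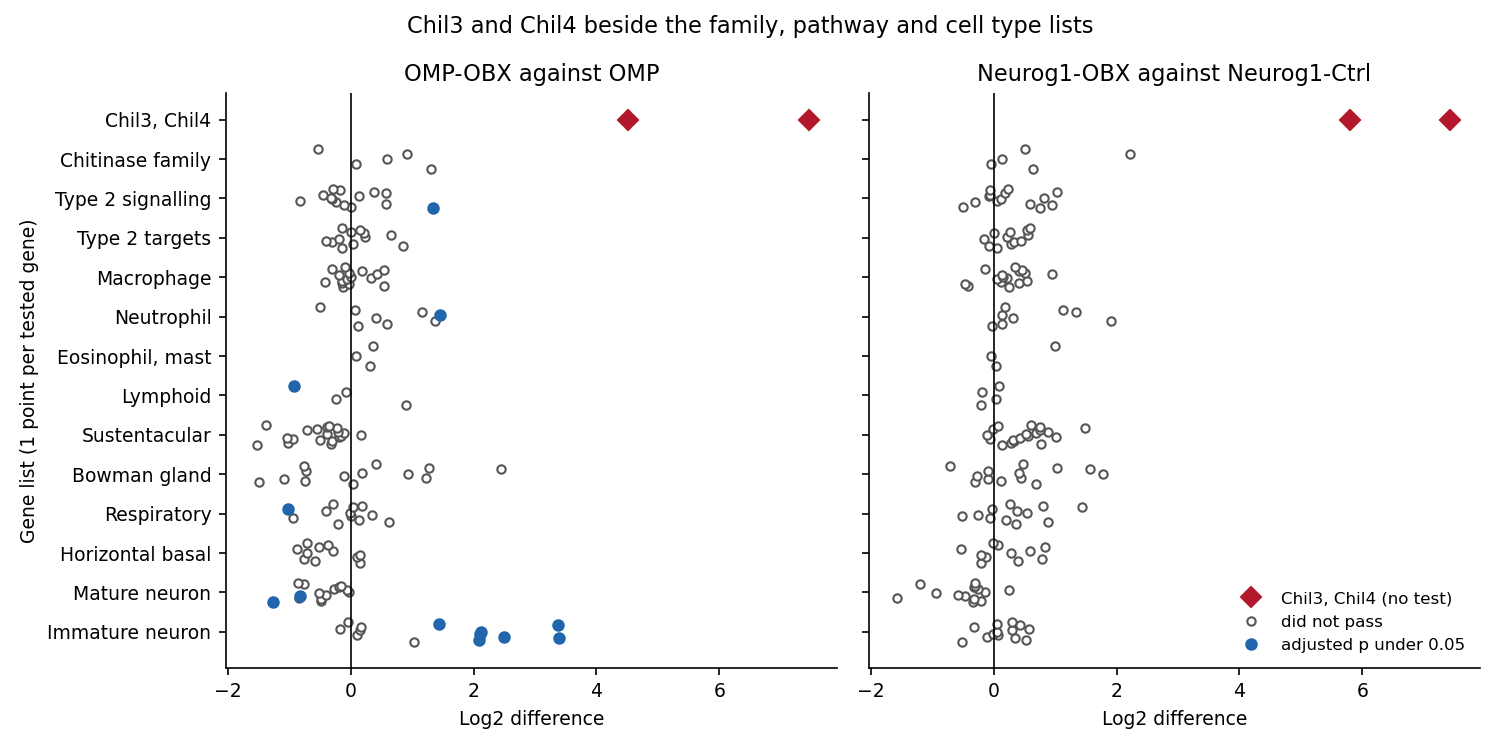
Log2 difference, lesioned minus unlesioned, of Chil3 and Chil4 (red diamonds, no test) above 1 row per gene list, with 1 point per tested gene, in the OMP sort (left) and the Neurog1 sort (right). Called genes are filled; 0 list genes were called in the Neurog1 sort, and 7 of 13 precursor genes were called in the OMP sort.

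Most listed markers of the epithelial cell types that surround the neurons were tested, though not all were detected in every group. Supporting cell genes gave 0 calls of 19 in both comparisons, with 6 and 5 at an unadjusted p under 0.05 in the OMP and Neurog1 sorts, and medians of -0.39 in the OMP sort and 0.53 in the Neurog1 sort. Cyp2g1, a cytochrome P450 of the olfactory epithelium, differed by -1.04 (adjusted p 0.0798, limma) and by 0.42, and its relatives Cyp2a5 and Cyp2a4 by -0.51 and -0.31 in the OMP sort. The summed level was 42465 to 63400 in OMP-OBX, against 57429 to 109530 in OMP. In Neurog1-OBX it was 62915 to 71307, against 35681 to 60947 in Neurog1-Ctrl. The ranges overlapped in the OMP sort and did not in the Neurog1 sort, and the part of supporting cell RNA in the Chil3 and Chil4 differences was not tested. It reached 297900 to 316600 in Sus, the highest of the mucosal groups. Without OMP replicate 3 the list held 3 calls in the OMP sort. In the Neurog1 sort it held calls under 3 of 19 alternatives, 3 higher genes with array weights and 1 with only the compared groups or without the lowest noise class.

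Genes of Bowman glands, the mucus glands below the epithelium, gave 0 calls of 13 in either comparison, with 1 and 3 at an unadjusted p under 0.05 in limma. Without OMP replicate 2 there were 2 calls in the OMP sort, and without OMP-OBX replicate 2 there was 1. The water channel Aqp5 differed by 0.04 and 0.69 in the OMP and Neurog1 sorts. The transcription factors Sox9 and Sox10 differed by 0.40 and 0.47, and by -0.76 and -0.72. Ltf, Obp2a, Pigr and Gpx6, singled out after their values were seen, were higher in both sorts without passing. They differed by 0.93, 2.44, 1.27 and 1.22 in the OMP sort and by 1.77, 1.57, 1.02 and 0.43 in the Neurog1 sort. Dcpp1, Dcpp3, Muc2 and Kcnn4, singled out in the same way, were lower in both, as was Sox10. Dcpp3 and Kcnn4 were not detected in the Neurog1 sort. Medians of the list were 0.04 and 0.405. The list's sum was 9666 to 18794 in OMP-OBX, against 6948 to 17468 in OMP, and 8391 to 21469 in Neurog1-OBX, against 3953 to 9505 in Neurog1-Ctrl. Respiratory epithelium genes gave 1 call of 12, a fall of Sec14l3, a ciliated cell gene, by 1.03 in OMP-OBX (adjusted p 0.0338, limma). Without any one of the arrays OMP-OBX replicate 1, OMP-OBX replicate 3, OMP replicate 1 or OMP replicate 2 the respiratory list held 0 calls. Bpifa1, a secreted airway defence protein, differed by -0.22 and 0.36. Horizontal basal cell genes gave 0 calls of 11 in limma (3 and 2 at an unadjusted p under 0.05) and 1 in the OMP sort without OMP-OBX replicate 3. Krt5 stood at -0.52 and 0.83 in the OMP and Neurog1 sorts, Krt14 at -0.30 and 0.59, and the transcription factor Trp63 at -0.72 and -0.01. Of the 11 genes, 4 to 7 were detected per Neurog1-Ctrl array and 6 per Neurog1-OBX array. Krt5 was detected on 1 of 3 Neurog1-Ctrl arrays.

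Calls among neuronal genes were found in the OMP sort. In OMP-OBX 7 of 13 precursor and young neuron genes rose, beside 4.24% of all genes. They include the growth cone protein Gap43 (3.38 ± 0.40 SE, adjusted p 2.73e-05), the microtubule regulator Stmn1 (3.37 ± 0.49 SE, adjusted p 0.000167) and the G protein subunit Gng8 (2.49 ± 0.41 SE, adjusted p 0.000496, all limma). Marcksl1, Insm1 and Dpysl3 rose by 2.12, 2.09 and 2.09. Of 14 mature neuron genes the odour signalling genes Adcy3 (the cyclase) and Cngb1 (a channel subunit) fell by 1.27 and 0.83, beside 4.43% of all genes lower. Omp, Cnga2 and Cnga4 did not pass, at -0.07, -0.49 and -0.84. Without any one of OMP-OBX replicates 1 and 3 or OMP replicates 1 and 3 this list held 1 call.

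In the Neurog1 sort 0 of the 13 precursor and 0 of the 14 mature neuron genes were called by limma, with 0 and 5 at an unadjusted p under 0.05. With array weights 3 mature neuron genes were called lower there. Gap43 differed by 0.34 and Adcy3 by -0.34. A test of the difference between the lesion effects called 4 of the 13 precursor genes, beside 1.98% of all genes. The summed level of the precursor list was 53069 to 64793 in OMP-OBX, against 23116 to 28560 in OMP. In Neurog1-OBX it was 94930 to 117280, against 92957 to 102170 in Neurog1-Ctrl, with overlap. Chil3 and Chil4 were far higher with the lesion in both sorts, while the precursor sum stood apart in the OMP sort and overlapped in the Neurog1 sort. The part of the shift in neuronal stage in their OMP difference was not tested.

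The genes whose levels were most like the mean of Chil3 and Chil4 over the 21 mucosal arrays were ranked by Pearson's r, as a description with no test, since the lesion gap sets much of it. Alox12e, a lipoxygenase of epidermis, came first with r of 0.874 (rho 0.868, and 0.845 without the 2 farthest arrays). It read 7.58, 7.01 and 7.80 in OMP-OBX, against 6.49, 5.90 and 5.06 in OMP. In Neurog1-OBX it read 9.28, 8.98 and 9.40, against 4.82, 6.36 and 6.41 in Neurog1-Ctrl. Lesioned and unlesioned arrays did not overlap, and the same unlesioned arrays were lowest as for Chil4. Its level in Sox2GBC was 7.38, 7.56 and 6.24, with replicate 3 lowest there too. Its r for deviations from the group means was 0.687.

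Slc39a11, a zinc transporter, followed with r of 0.777 over a narrow range, 9.77 in OMP-OBX against 9.41 in OMP and 9.95 in Neurog1-OBX against 9.51 in Neurog1-Ctrl. The others of the first 10 were Sox4, a transcription factor of progenitors (0.714), the collagenase Mmp1a (0.711), Susd1 (0.686), Maged2 (0.653), Btbd7 (0.651), Cox19 (0.650), Ang4 (0.647) and Ints10 (0.647). Their agreement rests on differences between groups. For deviations from the group means r was between -0.33 and 0.43 for these genes, Slc39a11 included.

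Ang4, a secreted ribonuclease known from Paneth cells of the mouse gut, had large differences like those of Chil3. It read 10.7, 10.3 and 8.58 in OMP-OBX, against 4.58, 4.57 and 6.34 in OMP, a difference of 4.70. In Neurog1-OBX it read 12.1, 11.4 and 10.3, against 6.45, 8.45 and 7.77 in Neurog1-Ctrl, a difference of 3.68. Lesioned and unlesioned arrays did not overlap in either pair. In Sus, where Chil4 was high on all arrays, Ang4 was detected on replicate 3 alone (6.69). It was detected on all 3 arrays of Sox2GBC, at 9.65, 9.82 and 8.43.

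**Figure D5:**
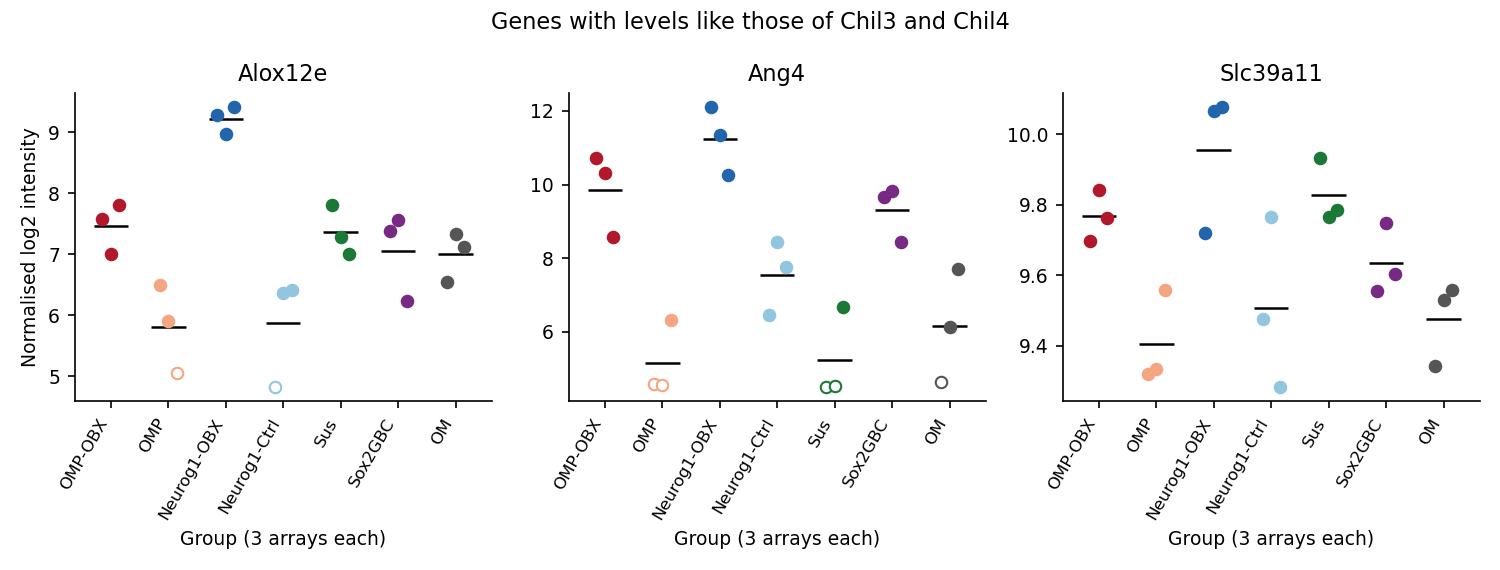
Normalised log2 intensity of Alox12e, Ang4 and Slc39a11 on each mucosal array (filled, detected; open, not detected; lines, means of 3 arrays; each vertical scale is its own). Alox12e and Ang4 are higher on every OMP-OBX and Neurog1-OBX array than in OMP and Neurog1-Ctrl, and Ang4 is not detected on 2 of 3 Sus arrays.

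By deviations from the group means alone, the measure that leaves the lesion gap out, other genes came first. They were Helq, a DNA helicase (r 0.805 over 21 arrays), Rac1, a small GTPase (0.785), Il18bp, a cytokine inhibitor (0.779), Rgs3 (0.771) and Spib, a transcription factor of lymphoid and gut epithelial cells (0.752). Their lesion differences were small. Helq differed by 0.00 and 0.11 in the OMP and Neurog1 sorts, Rac1 by 0.16 and 0.01, and Rgs3 by -0.38 and -0.24. Each r was picked as one of the highest among 11870 genes.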

How the data were processed

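Column-purified RNA of sorted cells was turned into biotin-labelled cRNA for Illumina bead arrays, per the labels' protocols. The deposited table holds background-subtracted probe intensity values and a detection p-value per probe and array, read with GenomeStudio per the submitters' processing notes, and the deposited series matrix holds the authors' processed intensity values on a linear scale. 1 OMP column numbered 4 was matched through its title to replicate 3.

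Here background was corrected from detection p-values with normexp in limma 3.58.1 (R 4.3.3), 16 was added, and the 21 mucosal arrays were quantile normalised to log2. Probes detected at p under 0.01 on 3 or more arrays were kept, and the brightest probe stood for its gene. Symbols came from the platform annotation (34885 probes with 1 gene, 18 with several, 10378 with none). lmFit and eBayes ran over 7 groups without covariates, with 14 residual degrees of freedom. The fit was tested on simulated data. Detected means a detection p under 0.01.

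The genes and all lists were chosen with earlier results of these data known. Named are all Chil3 and Chil4 probes, the chitinase family, up to 6 called and 3 other members per list in list order, the 10 genes most like Chil3 and Chil4, the 5 most like them within groups, and the reporter genes. Members that failed the filter, and those said to be singled out, were named after their values were seen. Alternatives were other background, normalisation, filter, probe, offset, weight, block and sample choices, with the fit without the lowest noise class added after seeing the data. Same-numbered replicates correlated between -0.03 and 0.14 in the OMP sort and between -0.23 and 0.06 in the Neurog1 sort, so the numbers were not taken to pair samples. Promoters were aligned with Biopython 1.88 and figures drawn with matplotlib 3.10.9 in Python 3.11.15.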

Additional observations from a re-analysis of the deposited data

Results flagged for a closer look

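The lesion effect differed between the sorts for 4 precursor and young neuron genes, by the limma contrast of OMP-OBX minus OMP against Neurog1-OBX minus Neurog1-Ctrl with Benjamini-Hochberg adjustment over all genes. The OMP effect was the larger by 3.05 ± 0.57 (SE) log2 units for Gap43 (adjusted p 0.00945) and by 2.61 ± 0.58 for Gng8 (adjusted p 0.0240). For Stmn1 it was larger by 2.94 ± 0.69 (adjusted p 0.0324), and for Marcksl1 by 2.08 ± 0.39 (adjusted p 0.00937).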

How the results depend on the processing

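The Chil4 difference stayed within 1 SD of its reported value, from 6.59 to 8.05 in the OMP sort and from 6.57 to 7.87 in the Neurog1 sort. Chil3 kept its direction in all 16 alternatives of each sort, and its size moved with the background setting, the source of the values, the offset and the probe choice. In the OMP sort it was 3.70 without background correction, 2.74 on the authors' processed values, 2.89 as the mean of all probes and 3.38 with an offset of 50. In the Neurog1 sort these were 4.96, 3.96, 3.68 and 4.68. Leaving out each array gave 4.31 to 4.90 and 5.43 to 6.21 for Chil3, and 6.74 to 8.05 and 6.57 to 7.85 for Chil4.

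Counts of called genes moved more. The 1029 calls in OMP-OBX against OMP became 675 with median scaling, which called 26.4% of them higher, against 48.9%, and shifted the median of all genes by -0.18. The 47 calls in the Neurog1 sort became 30 without background correction (60% higher), 25 with median scaling (36% higher), 182 with only the compared groups, 592 with array weights, 98 with the noise class as a block and 144 without the lowest noise class. The 235 calls for the difference of effects became 118 with median scaling and 806 with array weights. Of them 64.3% were higher, against 43.2% with median scaling and 48.2% with cyclic loess. Leaving out each array gave 658 to 982, 8 to 28 and 106 to 279 calls. The cause was not tested. With the replicate block there were 1017, 33 and 224 calls, and no Chil3 or Chil4 difference changed, since the groups are balanced. The bounds given for Chil3 hold for the processing used here, and the differences of some alternatives lie below them.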
